A study of Mus musculus with 12 samples.

Results

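The genes described here are 9 transcripts known from many tissues to respond to glucocorticoid hormone or to carry its signal: Nr3c1, Fkbp5, Tsc22d3, Zbtb16, Klf9, Sgk1, Errfi1, Dusp1 and Cdkn1a. They were chosen by gene symbol, 1 annotated gene for each, from 50600 annotated genes, and all 9 were among the 24660 genes that passed the filter on low counts. Expression was measured by RNA sequencing of total RNA from the descending thoracic aorta, which was cut from below the left subclavian branch down to the diaphragm. All 12 mice were C57BL/6J and carried 1 functional elastin allele (Eln+/-), so the controls had the elastin deficit too and no wild-type group was analysed here. Control mice (n = 4) drank plain water. On-drug mice (n = 4) drank water with minoxidil, which relaxes vessels by opening potassium channels that ATP closes, for 2 weeks from 2.5 months of age. Off-drug mice (n = 4) had the same 2 weeks of minoxidil and then 1 week of plain water. Every mouse carried the labelled age of 3 months, although the schedule put the off-drug mice about 1 week later at harvest. The hour of collection is not in the labels, and nothing there says whether mice of a group shared a cage. Each library was a separate sample of its group.

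Glucocorticoids enter cells and bind the glucocorticoid receptor, which waits in the cytoplasm in a complex with heat-shock protein 90 and its co-chaperones. The bound receptor moves to the nucleus, binds a palindromic DNA element and raises or lowers transcription of its targets. In the vessel wall the hormone is known for increasing contractile tone and for damping inflammation, and its blood level follows a daily rhythm. Several of the 9 genes also have other strong inducers, such as growth factors, stretch, the circadian clock or p53, so their transcript levels are not a measure of hormone. No hormone was measured in these files.

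The libraries held between 41524501 and 109423243 counts, the lowest in on-drug replicate 3 and the highest in on-drug replicate 1. Within groups, pairs of libraries had Spearman correlations of 0.984 to 0.989. The smallest count of any of the 9 genes in any library was 580 (Cdkn1a), so counting error was small for these 9. Smooth muscle markers, 8 genes including Myh11, Acta2 and Tagln, summed to between 15970.0 and 20900.0 CPM (counts per 1000000, scaled to library size) in the 12 libraries, as the aortic label implies. In bulk tissue, fewer cells of a type and less RNA per cell cannot be told apart. The 3 comparisons share groups, so their values are given side by side and are not independent of each other.

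Upstream sequences of 5 of the genes are shown first, since they differ in which known regulatory elements they hold. RefSeq promoter windows (GRCm38.p6, from 250 bases before to 50 bases after each annotated start) existed for 7 of the 9 genes, with 16 windows in all. Each window was searched on both strands for the glucocorticoid response element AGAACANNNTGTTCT, its single arm AGAACA, the cyclic-AMP response element TGACGTCA and the E-box CACGTG, which clock proteins bind. The full glucocorticoid element was found in 3 of 32851 mouse promoter windows (0.00913%), and 1 of these lay before a start of Sgk1. The other 3 motifs were found in 19% (single arm), 1.79% (cyclic-AMP element) and 7.15% (E-box) of all windows. Sequences are printed 5′ to 3′ on the strand of the gene, ahead of the start, with matches in capitals. Adjoining or overlapping matches form 1 run of capitals. The Dusp1 and Tsc22d3 sequences are trimmed where annotated exons of the gene begin, so they stop short of the starts used, at 26508472 and 140600522, and distances are counted from those starts.
Sgk1 (chr10:21993640-21993889, plus strand): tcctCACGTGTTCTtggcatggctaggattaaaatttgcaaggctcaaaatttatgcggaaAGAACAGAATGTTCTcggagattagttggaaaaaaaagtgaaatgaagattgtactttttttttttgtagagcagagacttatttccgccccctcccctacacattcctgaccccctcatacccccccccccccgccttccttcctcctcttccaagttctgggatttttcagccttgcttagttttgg
Dusp1 (chr17:26508520-26508722, minus strand): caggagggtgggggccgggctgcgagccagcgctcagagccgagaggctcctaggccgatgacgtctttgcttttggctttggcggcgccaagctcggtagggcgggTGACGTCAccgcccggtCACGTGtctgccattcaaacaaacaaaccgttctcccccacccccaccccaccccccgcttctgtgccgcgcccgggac
Errfi1 (chr4:150854820-150855069, plus strand): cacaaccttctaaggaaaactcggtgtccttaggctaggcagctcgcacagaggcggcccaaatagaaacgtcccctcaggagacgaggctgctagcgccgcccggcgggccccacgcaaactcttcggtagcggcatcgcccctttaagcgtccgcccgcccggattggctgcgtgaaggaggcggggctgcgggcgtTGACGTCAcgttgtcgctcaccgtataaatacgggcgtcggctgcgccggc
Fkbp5 (chr17:28486150-28486399, minus strand): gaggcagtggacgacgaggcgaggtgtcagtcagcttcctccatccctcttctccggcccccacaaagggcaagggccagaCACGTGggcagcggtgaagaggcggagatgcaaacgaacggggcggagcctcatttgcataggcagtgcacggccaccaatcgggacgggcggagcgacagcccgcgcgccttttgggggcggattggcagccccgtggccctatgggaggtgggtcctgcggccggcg
Tsc22d3 (chrX:140600660-140600772, minus strand): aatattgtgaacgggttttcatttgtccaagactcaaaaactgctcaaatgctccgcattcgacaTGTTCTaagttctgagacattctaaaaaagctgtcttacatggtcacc

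In the Sgk1 sequence the long capital run near its left end is the full glucocorticoid element, which begins 189 bases before the start. The first capital run there is an E-box, beginning at 246 bases, that overlaps a single arm of the glucocorticoid element on the other strand. The Dusp1 sequence holds the cyclic-AMP element 143 bases and an E-box 126 bases before the start. In Errfi1 a cyclic-AMP element begins 51 bases before the start, in Fkbp5 an E-box begins at 169 bases, and in Tsc22d3 a single arm of the glucocorticoid element on the other strand begins at 185 bases. No full glucocorticoid element, cyclic-AMP element or E-box was in the windows of Klf9 or Cdkn1a, and Zbtb16 and Nr3c1 had no window in the table. A match is a description of letters, and receptor sites outside these windows were not searched. Windows with fewer or no matches are not printed. The Tsc22d3 windows that begin at 140542619 and 140548522 and the Errfi1 window at 150853546 held none of the motifs searched. The Sgk1 windows at 21881934 and 21991973 each held 1 single arm. Sgk1 has 6 RefSeq windows, and the counts, which are per gene, do not tell which start was used.

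Nr3c1 encodes the glucocorticoid receptor itself (ENSMUSG00000024431.14, chromosome 18, 39410545 to 39491301, minus strand, GRCm38). Control libraries held 201, 214, 203 and 175.5 CPM in the order of replicates 1 to 4. On-drug libraries held 172, 185, 190.0 and 181 CPM, and off-drug libraries 213.5, 231, 222.5 and 227 CPM. The off-drug mice were all above the on-drug mice, while control replicate 4 lay inside the on-drug range and control replicate 2 inside the off-drug range. Off drug against on drug, Nr3c1 rose by 0.30 ± 0.06 on the log2 scale (SE; edgeR quasi-likelihood adjusted p = 0.003521). The differences from controls did not pass: -0.12 ± 0.06 on drug (adjusted p = 0.2549) and 0.17 ± 0.06 off drug (adjusted p = 0.08107). With the stricter filter the off-drug difference from controls passed at an adjusted p of 0.04848. It was the member with the smallest relative spread off drug, with a coefficient of variation of 3.38%.

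FKBP5 is a co-chaperone that lowers the receptor's affinity for hormone, and its gene is among the most widely used readouts of receptor activity (ENSMUSG00000024222.16, chromosome 17, 28399095 to 28517524, minus strand). Controls held 62.6, 72.8, 107 and 93.6 CPM of Fkbp5. On-drug mice held 149.6, 89.1, 69.1 and 108 CPM, and off-drug mice 54.5, 49.7, 48.1 and 52.3 CPM. The 4 off-drug libraries lay below all 8 others, while the on-drug and control ranges overlapped. From on drug to off drug Fkbp5 fell by 1.03 ± 0.24 on the log2 scale (adjusted p = 0.0208), from 104 ± 34.3 to 51.2 ± 2.82 CPM (SD, n = 4). Against controls, at 83.9 ± 19.8 CPM, the off-drug difference of -0.71 ± 0.24 did not pass (adjusted p = 0.08669), nor did the on-drug difference of 0.31 ± 0.24 (adjusted p = 0.5004). Both calls hung on the libraries used. Against on-drug mice, the adjusted p was 0.05097, 0.05534, 0.06367 and 0.0554 when off-drug replicates 1 to 4 were left out in turn. Off drug against control, it was 0.03543 without on-drug replicate 1, 0.02097 in DESeq2 and 0.02253 when only those 2 groups were fitted.

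Tsc22d3 encodes GILZ, a leucine-zipper protein that mediates anti-inflammatory effects of the hormone (ENSMUSG00000031431.13, chromosome X, 140539528 to 140600659, minus strand). Controls held 278, 238, 304 and 224 CPM. On-drug mice held 361, 176, 171 and 258 CPM, and off-drug mice 265, 262.5, 225 and 234.5 CPM. All 3 ranges overlapped, and the on-drug range enclosed the other 2. The log2 differences from controls were -0.11 ± 0.23 on drug and -0.08 ± 0.23 off drug, and off-drug mice differed from on-drug mice by 0.03 ± 0.23. Their adjusted p-values were 0.8378, 0.8723 and 0.9604, and none of the 20 other settings gave a call. Of this classic pair of receptor readouts, Fkbp5 passed off drug against on drug and Tsc22d3 did not, and the difference between the 2 genes was not tested.

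Zbtb16 and Klf9 are transcription factors. Zbtb16 encodes PLZF, a zinc-finger repressor with a strong hormone response in many cell types (ENSMUSG00000066687.5, chromosome 9, 48654297 to 48836222, minus strand). Controls held 71.4, 105, 105 and 87.6 CPM of Zbtb16. On-drug mice held 141.5, 84.3, 92.1 and 88.0 CPM, and off-drug mice 62.9, 51.8, 44.7 and 73.4 CPM. Off-drug values lay below every on-drug value, and off-drug replicate 4 was just above control replicate 1. Zbtb16 fell by 0.80 ± 0.22 on the log2 scale from on drug to off drug (adjusted p = 0.03944). That call was lost in 12 of the 20 other settings, with adjusted p up to 0.1005. It was lost without control replicate 2 (0.05274), 3 (0.05107) or 4 (0.05578), without on-drug replicate 1 (0.05878), 3 (0.06651) or 4 (0.05316), and without off-drug replicate 1 (0.07556), 2 (0.09648) or 3 (0.09214). Against controls the off-drug difference was -0.66 ± 0.22 (adjusted p = 0.08029), and it passed without on-drug replicate 1 (0.02796) and in DESeq2 (0.02036). On drug against control, the difference was 0.14 ± 0.22 (adjusted p = 0.7738).

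Klf9 encodes a Krüppel-like factor that the receptor induces and that links the hormone to the circadian clock (ENSMUSG00000033863.1, chromosome 19, 23141226 to 23166911, plus strand). Controls held 237, 234, 224 and 216 CPM. On-drug mice held 276, 255, 257 and 298 CPM, and off-drug mice 228, 215, 217 and 237 CPM. Each on-drug library was above all 8 others, and off-drug and control mice covered nearly the same range. Klf9 rose on drug by 0.26 ± 0.06 on the log2 scale over controls (adjusted p = 0.01809) and was the only one of the 9 genes to pass in that comparison. The call was lost without control replicate 3 (0.05425), control replicate 4 (0.05448) or on-drug replicate 4 (0.07575). Off drug it fell by 0.28 ± 0.06 from the on-drug level (adjusted p = 0.005523), which passed in all 20 other settings. The off-drug level differed from controls by -0.02 ± 0.06 (adjusted p = 0.8741).

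Sgk1 and Errfi1 act in kinase signalling. SGK1 is a kinase that raises sodium and potassium transport and is induced by glucocorticoid and aldosterone (ENSMUSG00000019970.15, chromosome 10, 21882184 to 21999903, plus strand). Sgk1, whose upstream sequence holds the full element shown above, passed in no comparison. Controls held 177, 165.5, 132 and 105 CPM, on-drug mice 156, 104, 124 and 126 CPM, and off-drug mice 131, 115, 119 and 119.7 CPM. The off-drug values lay within the control range. The log2 differences from controls were -0.18 ± 0.16 on drug (adjusted p = 0.5631) and -0.26 ± 0.16 off drug (adjusted p = 0.3499). Off-drug and on-drug mice differed by -0.07 ± 0.16 (adjusted p = 0.8376).

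Errfi1 encodes MIG6, which binds and inhibits active receptors of the epidermal growth factor (ERBB) family (ENSMUSG00000028967.10, chromosome 4, 150853919 to 150868892, plus strand). Controls held 486.5, 279.7, 195 and 151.5 CPM. On-drug mice held 411, 131, 136 and 124 CPM, and off-drug mice 122, 127.5, 135 and 127.6 CPM. The 4 controls spread from 151.5 to 486.5 CPM, on-drug replicate 1 stood far above the other on-drug mice, and the off-drug mice were nearly equal to each other. Off-drug values were below every control, with a log2 difference of -1.12 ± 0.48 that did not pass (adjusted p = 0.1779). Without control replicate 1 this difference was -0.70. The other differences were -0.47 ± 0.47 on drug against control (adjusted p = 0.6346) and -0.65 ± 0.47 off drug against on drug (adjusted p = 0.4592). Leaving out on-drug replicate 1 moved them to -1.10 and -0.02.

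Dusp1 and Cdkn1a passed in both comparisons of off-drug mice. DUSP1 is a nuclear phosphatase that switches off the p38 and JNK kinases (ENSMUSG00000024190.6, chromosome 17, 26505590 to 26508519, minus strand). Controls held 381, 469.8, 328 and 381 CPM of Dusp1. On-drug mice held 363, 394.5, 416 and 304 CPM, and off-drug mice 268, 233, 244 and 222 CPM. All 4 off-drug libraries were below all 8 others, which overlapped each other. Dusp1 fell off drug by 0.69 ± 0.11 on the log2 scale against controls (adjusted p = 0.0008461) and by 0.61 ± 0.11 against on-drug mice (adjusted p = 0.001643). On drug against control the difference was -0.08 ± 0.11 (adjusted p = 0.7396).

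CDKN1A, also called p21, inhibits cyclin-dependent kinases and halts the cell cycle, and p53 is its other main inducer (ENSMUSG00000023067.13, chromosome 17, 29090979 to 29100722, plus strand). Controls held 21.9, 17.8, 20.3 and 24.4 CPM of Cdkn1a. On-drug mice held 20.3, 16.6, 18.5 and 12.4 CPM, and off-drug mice 11.8, 9.76, 7.43 and 8.23 CPM. The off-drug values were again the lowest 4 of the 12, while on-drug replicate 4 was not far above them. Cdkn1a fell off drug by 1.18 ± 0.17 on the log2 scale against controls (adjusted p = 0.0005487) and by 0.87 ± 0.17 against on-drug mice (adjusted p = 0.003889). The on-drug difference from controls was -0.32 ± 0.17 (adjusted p = 0.2771). Both off-drug falls of Dusp1 and of Cdkn1a passed in all 20 other settings.

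**Figure D1:**
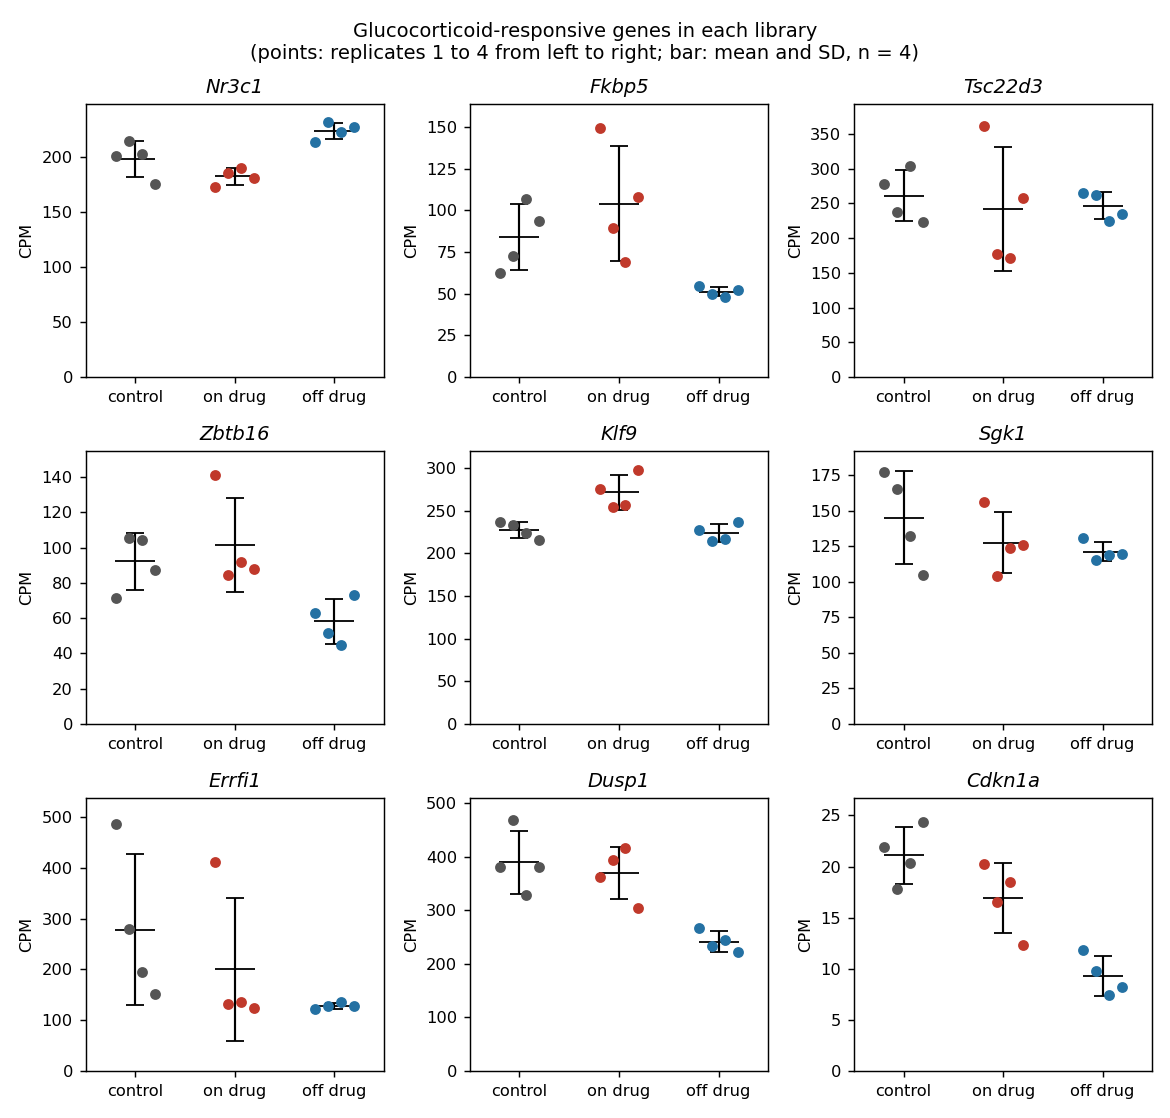
CPM (counts scaled to library size, linear axis from 0) of the 9 genes in each of the 12 libraries; points are replicates 1 to 4 from left to right in each group, and the bar is the mean with SD (n = 4). Off-drug libraries lie below all others for Fkbp5, Dusp1 and Cdkn1a, and on-drug libraries lie above all others for Klf9.

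Counted together, 1 of the 9 genes passed on drug against control (Klf9, higher; 11.1%), beside 7.07% of all genes tested (4.13% higher and 2.94% lower). By edgeR 0 of the 9 were lower there, 0 also at an unadjusted p below 0.05 and by DESeq2 and limma-voom. The on-drug count was 0 without control replicate 3, control replicate 4 or on-drug replicate 4. Off drug against control, 2 of 9 passed, both lower (22.2%), beside 12% of all genes tested (6.27% higher and 5.77% lower). Leaving out on-drug replicate 1, or using DESeq2, added Fkbp5 and Zbtb16 to make 4. By edgeR 0 of the 9 were higher there, with 1 at an unadjusted p below 0.05 and 0 by DESeq2 or limma-voom, and Nr3c1 was the 1 that passed under the stricter filter.

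Off drug against on drug, 6 of 9 passed, 5 lower (Fkbp5, Zbtb16, Klf9, Dusp1 and Cdkn1a) and Nr3c1 higher, which is 66.7% beside 12.4% of all genes (5.44% higher and 6.92% lower). The lower count was 3 without off-drug replicate 1, 2 or 3, when Fkbp5 and Zbtb16 no longer passed. On-drug mice lay wholly above controls for 1 of the 9 genes and wholly below for 0, which was the case for 6.3% and 6.01% of all genes. Off-drug mice lay wholly below controls for 4 (Fkbp5, Errfi1, Dusp1 and Cdkn1a) and above for 0, beside 7.73% and 9.2% of all genes. They lay wholly below on-drug mice for 5 and above for 1, beside 9.37% and 9.44%. Over the 9 genes the median log2 difference from controls was -0.11 on drug and -0.66 off drug, and it was -0.61 between off-drug and on-drug mice. Over all genes tested these medians were 0.005, -0.008 and -0.001.

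**Figure D2:**
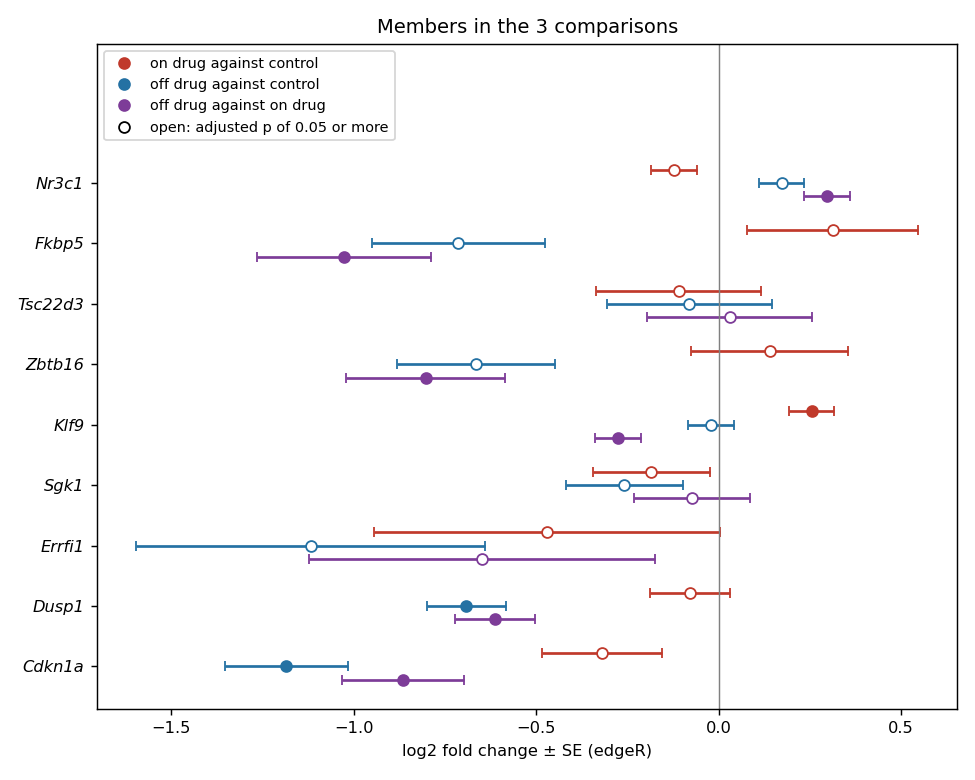
Log2 fold change of each gene in the 3 comparisons (x axis; points with SE bars from edgeR), filled where the adjusted p was below 0.05. Against controls 1 point is filled on drug and 2 off drug, and 6 are filled for off drug against on drug, of which Nr3c1 alone lies right of 0.

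The genes differed in how much mice of the same group varied. Errfi1 had the widest spread, with coefficients of variation of 53.5% in controls and 70.2% on drug but 4.27% off drug. Fkbp5 went from 23.6% and 33.0% to 5.51%, and Tsc22d3 from 14.2% and 36.8% to 8.03%, in the same order of groups. Zbtb16 (17.5%, 26.5% and 21.7%) and Cdkn1a (13.2%, 20.1% and 20.9%) were above 20% off drug. Klf9 stayed between 4.28% and 7.44%. The median over 14904 expressed genes was 9.34% in controls, 8.15% on drug and 7.22% off drug. On-drug replicate 1, also the deepest library, was the highest of its group for 6 of the 9 genes (Fkbp5, Tsc22d3, Zbtb16, Sgk1, Errfi1 and Cdkn1a) and the lowest for Nr3c1. The part that this library's depth plays was not tested.

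**Figure D3:**
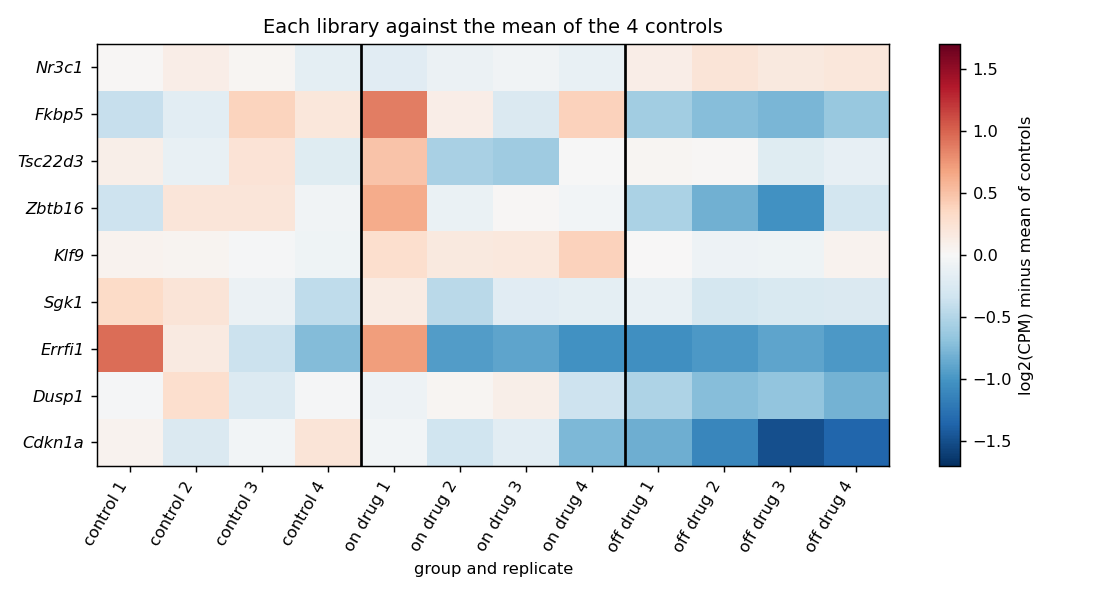
Each library's log2 CPM minus the mean of the 4 controls for the 9 genes (rows), with groups separated by lines; red is higher and blue lower than the control mean. On-drug replicate 1 stands out in Fkbp5, Tsc22d3, Zbtb16 and Errfi1, and the off-drug block is blue for Fkbp5, Zbtb16, Errfi1, Dusp1 and Cdkn1a.

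Across the 12 libraries, after each group's mean was taken off, Sgk1 and Errfi1 varied together most closely (Pearson r = 0.841, and 0.828 without on-drug replicate 1). Fkbp5 and Tsc22d3 had r = 0.739, which was 0.48 without that library, and Fkbp5 and Zbtb16 had 0.634 and 0.369. Tsc22d3 and Errfi1 had 0.623 with on-drug replicate 1 and 0.109 without it. Some pairs had negative values, either with all libraries or only without on-drug replicate 1. Fkbp5 had r = -0.499 with Dusp1 (-0.637 without on-drug replicate 1) and -0.541 with Nr3c1 (-0.43 without it). Tsc22d3 and Dusp1 had -0.458 with that library and -0.681 without it, and Fkbp5 and Errfi1 had 0.122 and -0.75. These values describe 12 libraries that share depth and tissue makeup within each mouse.

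Levels between genes were compared per length, as CPM per kilobase of annotated exon. In controls Dusp1 was highest, with a level of 145 ± 21.8 CPM per kilobase. Errfi1 (77.6 ± 41.5), Klf9 (69.7 ± 2.99) and Tsc22d3 (60.1 ± 8.51) followed on the same scale, and their ranges ran into each other, with the top of Errfi1 reaching into the range of Dusp1. Sgk1 (29.6 ± 6.69) and Nr3c1 (26.7 ± 2.19) were next and overlapped. Zbtb16 (17.5 ± 3.05), Fkbp5 (13.2 ± 3.12) and Cdkn1a (9.50 ± 1.25) were lowest, each overlapping its neighbour. On drug the order by level was the same but for Klf9 (83.2 ± 6.19 CPM per kilobase), which stood above Errfi1 (56.0 ± 39.3). The place of Errfi1 there rests on on-drug replicate 1, at 114.8 against 34.5 to 37.9 in the other 3, and by median it was below Tsc22d3 (37.2 against 50.02). Off drug Dusp1 was again first at 89.6 ± 7.34 CPM per kilobase and Cdkn1a last at 4.19 ± 0.876. Errfi1, at 35.8 ± 1.53, was then below Klf9 (68.7 ± 3.21) and Tsc22d3 (56.8 ± 4.57), and Nr3c1 (30.1 ± 1.02) stood above Sgk1 (24.7 ± 1.34). Off drug each of these genes lay apart from its neighbours in level except Zbtb16 (11.02 ± 2.39) and Fkbp5 (8.04 ± 0.443), whose ranges met.

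Of 10 tested genes that bind, make, inactivate or export the hormone, beside Nr3c1, the 3 that passed in any comparison by edgeR were Nr3c2, Hsd11b1 and H6pd. Nr3c2 encodes the mineralocorticoid receptor, which binds the same hormone with higher affinity. Its levels were 38.5, 32.5, 26.4 and 17.3 CPM in controls, 24.5, 17.0, 16.2 and 16.1 CPM on drug, and 50.2, 51.3, 47.7 and 49.8 CPM off drug. The off-drug mice were the 4 highest, and the control and on-drug ranges overlapped. Against on-drug mice, Nr3c2 rose off drug by 1.43 ± 0.23 on the log2 scale (adjusted p = 0.00249), in all 20 other settings too. Over controls it rose by 0.80 ± 0.22 off drug (adjusted p = 0.04581). That call was lost in 12 other settings, with adjusted p up to 0.1205, among them without control replicate 2 or 3, on-drug replicate 2, 3 or 4, or any 1 off-drug replicate. The on-drug difference from controls was -0.63 (adjusted p = 0.1281), and it passed without control replicate 4 (0.01034) and in DESeq2 (0.03509).

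Hsd11b1 encodes the reductase that regenerates active hormone inside cells, and H6pd encodes the enzyme that supplies its NADPH. Hsd11b1 was at 30.0, 32.6, 24.8 and 31.3 CPM in controls, 23.1, 23.6, 22.6 and 23.2 CPM on drug, and 34.7, 30.9, 31.8 and 33.2 CPM off drug. All on-drug values were below all others. H6pd was at 81.5, 78.7, 75.8 and 80.7 CPM in controls, 88.3, 101.8, 99.4 and 112 CPM on drug, and 74.5, 69.3, 71.2 and 72.4 CPM off drug, with the on-drug values above all others. On drug against control Hsd11b1 fell by 0.36 ± 0.08 on the log2 scale (adjusted p = 0.008041) and H6pd rose by 0.34 ± 0.07 (adjusted p = 0.004141). After the drug-free week Hsd11b1 rose from its on-drug level by 0.50 ± 0.08 (adjusted p = 0.000201) and H6pd fell by 0.48 ± 0.07 (adjusted p = 5.635e-05). These 4 calls passed in all 20 other settings. Hsd11b2, the enzyme that inactivates the hormone, was between 0.171 and 0.584 CPM in every library and passed in no comparison. Of the 10 tested genes of hormone handling, 1 rose and 1 fell on drug against control (2 fell without control replicate 4, when Nr3c2 passed). From on drug to off drug 2 rose and 1 fell. Of all genes tested, 4.13% rose and 2.94% fell on drug against control, and 5.44% and 6.92% from on drug to off drug.

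Among 15 chaperones and co-chaperones of the receptor complex, 7 fell on drug against control and 0 rose (1 at an unadjusted p below 0.05, and 0 by DESeq2 or limma-voom). Over all genes tested 2.94% fell and 4.13% rose in this comparison. The fall held in all 20 other settings for Hsp90aa1, Hsp90ab1, Dnaja1 and Fkbp4. Hsp90aa1, the inducible HSP90, was at 382, 384, 616 and 452.5 CPM in controls, 241, 314, 269 and 243 CPM on drug, and 271, 294, 234 and 287 CPM off drug. Its values were lower than every control in both treated groups, and control replicate 3 was the highest of all. It fell by 0.78 ± 0.15 on the log2 scale on drug (adjusted p = 0.01166) and by 0.75 ± 0.15 off drug (adjusted p = 0.007979), both against controls.

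FKBP4 competes with FKBP5 for HSP90 and favours the receptor's transport to the nucleus. Fkbp4 was at 81.3, 79.3, 99.4 and 83.2 CPM in controls, 56.1, 72.8, 60.3 and 58.5 CPM on drug, and 75.2, 78.6, 68.6 and 72.4 CPM off drug. On-drug and off-drug values lay below every control. It fell by 0.47 ± 0.08 on drug (adjusted p = 0.003009), while off drug the difference from controls was -0.22 (adjusted p = 0.0995, and 0.03344 with no filter). Off drug against control 8 of the 15 chaperones fell and 0 rose (1 at an unadjusted p below 0.05, and 0 by DESeq2 or limma-voom), with 3 that fell in every setting: Hsp90aa1, Hspa8 and Hspa4. That count was 3 without control replicate 3 or off-drug replicate 3, and 4 without off-drug replicate 1 or with scaling by library size alone. Over all genes tested 5.77% fell and 6.27% rose off drug against control. The list's median log2 difference was -0.30 on drug and -0.28 off drug, both against controls, beside 0.005 and -0.008 over all genes.

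**Figure D4:**
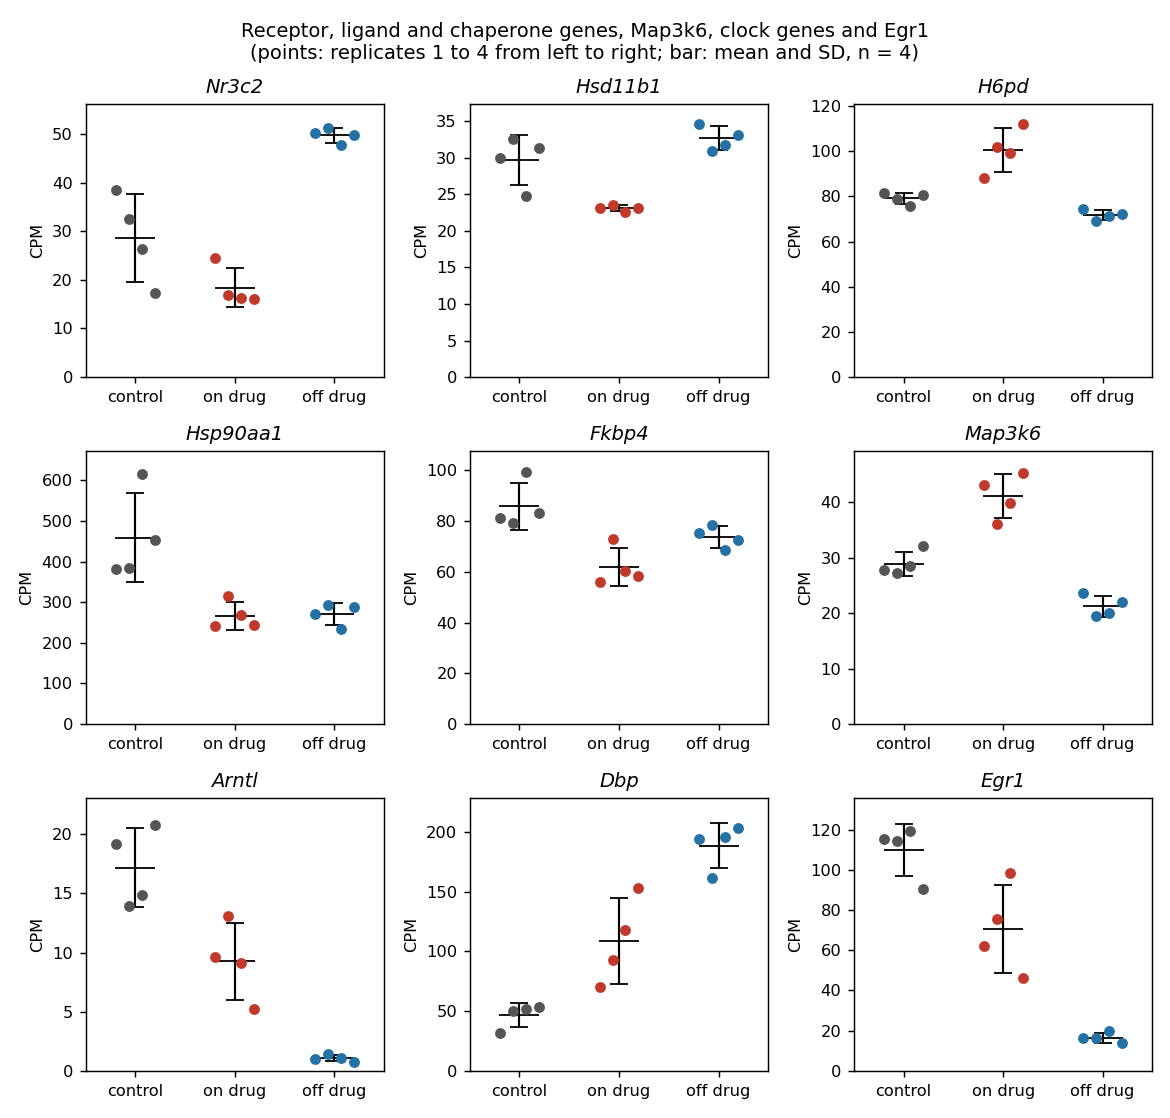
CPM (linear axis from 0) in each library for genes of the receptor complex and its hormone (Nr3c2, Hsd11b1, H6pd, Hsp90aa1, Fkbp4), the induced gene Map3k6, the clock genes Arntl and Dbp, and Egr1; points are replicates 1 to 4, bars are mean with SD (n = 4). Hsd11b1 is lowest on drug and H6pd highest on drug, while Arntl is near 1 CPM in the off-drug libraries.

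Other genes that the hormone induces in several tissues were examined as a list of 32, of which 31 were tested. On drug against control 6 rose and 1 fell, a median log2 difference of 0.17, but the higher count ranged from 1 (without control replicate 4) to 5 when single libraries were left out, with 2 without control replicate 2 or on-drug replicate 4, and 3 without control replicate 1, control replicate 3 or on-drug replicate 3. The 1 fall, of Cebpb, was lost without control replicate 1 or 2 or on-drug replicate 2, 3 or 4, and with library size alone. Over all genes tested 4.13% rose and 2.94% fell in this comparison. Map3k6, a stress-activated kinase gene, was the 1 that rose in every setting. It was at 27.8, 27.3, 28.5 and 32.1 CPM in controls, 43.2, 36.2, 39.9 and 45.3 CPM on drug, and 23.6, 19.5, 20.0 and 22.01 CPM off drug. The 3 groups did not overlap, with on drug highest and off drug lowest. Map3k6 rose by 0.51 ± 0.08 on the log2 scale on drug over controls (adjusted p = 0.001338) and fell by 0.95 ± 0.08 from on drug to off drug (adjusted p = 5.669e-07).

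From on drug to off drug 8 of these 31 genes fell and 0 rose (0 at an unadjusted p below 0.05, by DESeq2 and by limma-voom), with a median of -0.26 beside -0.001 over all genes. The count was 5 when only those 2 groups were fitted. Over all genes tested 6.92% fell from on drug to off drug. Map3k6, Mertk, Zfp36, Tgm2 and Cd163 fell in every setting. Zfp36 encodes tristetraprolin, which speeds the decay of inflammatory messenger RNAs, and is also an immediate-early gene. It was at 61.0, 58.8, 51.5 and 47.0 CPM in controls, 49.2, 58.3, 79.0 and 47.3 CPM on drug, and 26.9, 23.4, 27.0 and 25.1 CPM off drug. The off-drug libraries were the 4 lowest, and Zfp36 fell by 1.19 ± 0.15 on the log2 scale against on drug (adjusted p = 0.0002362) and by 1.09 ± 0.15 against controls (adjusted p = 0.0005838). Mertk, a receptor for engulfing dead cells, fell by 0.29 ± 0.07 against on drug (adjusted p = 0.006157). Cd163 is also a macrophage marker, and the macrophage markers are given with the tissue values. Against controls 5 genes fell off drug (9 in DESeq2) and 1 rose (Usp2, adjusted p = 0.04931). The rise was lost in 10 of 20 other settings, among them without control replicate 2, 3 or 4, on-drug replicate 1 or 4, or any 1 off-drug replicate. Cebpb, Map3k6, Mertk and Zfp36 fell in every setting. Over all genes tested 5.77% fell and 6.27% rose off drug against control.

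**Figure D5:**
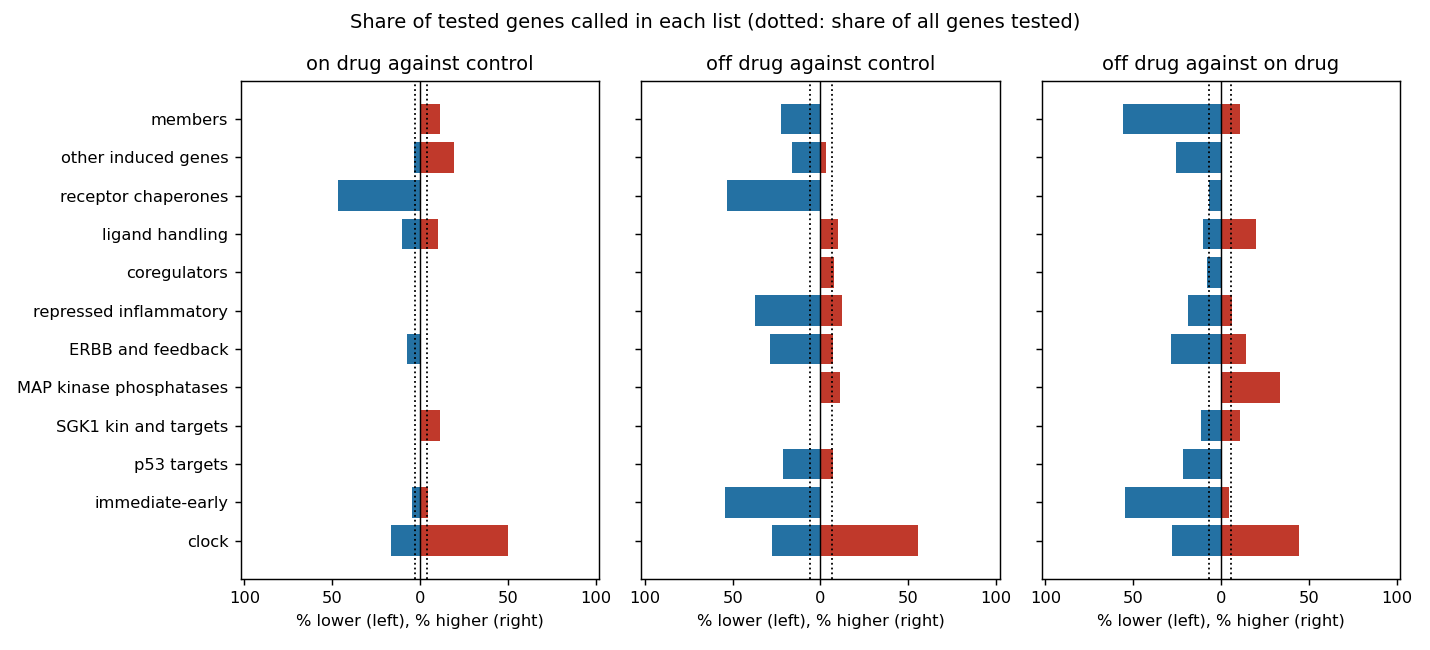
Percent of the tested genes in each pathway list that passed as lower (left, blue) or higher (right, red), for the 3 comparisons; dotted lines mark the percent of all 24660 genes that passed in each direction. On drug against control 7 of 15 chaperones lie to the left, and off drug against on drug 5 of the 9 genes (top row, named members) do. Cell-type marker lists are not plotted.

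Lists around single members were examined for genes of the same pathway. Among 14 tested ligands, receptors and feedback inhibitors of ERBB signalling, beside Errfi1, 4 fell off drug against control in every setting: Egfr, Ereg, Spry1 and Socs3. In that comparison 1 rose, a call lost without control replicate 3 or with no filter. Over all genes tested 5.77% fell and 6.27% rose there. Spry1, a feedback inhibitor of growth factor signalling, was at 21.0, 22.4, 19.6 and 23.9 CPM in controls, 19.2, 21.1, 18.5 and 20.8 CPM on drug, and 14.3, 15.1, 12.3 and 13.3 CPM off drug. It fell by 0.66 ± 0.08 on the log2 scale (adjusted p = 4.363e-05). Socs3, an inhibitor of cytokine receptors, fell by 1.18 ± 0.16 (adjusted p = 0.0003579). Off drug against on drug 2 of the 14 rose and 4 fell, beside 5.44% and 6.92% of all genes tested. The ligand Btc rose by 0.90 ± 0.15 (adjusted p = 0.00118) and the feedback inhibitor Spry2 by 0.48 ± 0.11 (adjusted p = 0.005867), both in every setting. Spry1 (-0.53 ± 0.08, adjusted p = 0.0002717) and Socs3 (-1.33 ± 0.16, adjusted p = 9.737e-05) fell in every setting. The lower count was 2 without on-drug replicate 2 or off-drug replicate 1, 3 or 4.

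Of the other 9 tested MAP kinase phosphatases 0 were lower off drug against control by edgeR and limma-voom, with 1 lower at an unadjusted p below 0.05 and 1 by DESeq2. Dusp14 was higher there by 1.18 ± 0.20 (adjusted p = 0.002196), at 5.16, 4.78, 5.64 and 4.89 CPM in controls and 10.9, 11.5, 13.4 and 10.6 CPM off drug. By edgeR it was the 1 call among the 9, beside 6.27% higher and 5.77% lower over all genes tested. From on drug to off drug 3 of the 9 rose (4 by DESeq2 or limma-voom), beside 5.44% of all genes. These rises numbered 0 without on-drug replicate 2 or off-drug replicate 1. From on drug to off drug 0 fell, also at an unadjusted p below 0.05, by DESeq2 and by limma-voom. Among the 14 p53 targets tested beside Cdkn1a, 3 fell and 1 rose off drug against control, and the rise was lost without control replicate 2 or 3 or off-drug replicate 1 or 3. Bbc3, a promoter of cell death, fell by 0.84 ± 0.17 (adjusted p = 0.002386) and Btg2 by 1.72 ± 0.25 (adjusted p = 0.002182), both in every setting. Btg2 is also an immediate-early gene. Mdm2 and Ccng1, both well-known p53 targets and chosen after their values were seen, differed by -0.05 ± 0.06 (adjusted p = 0.6524) and -0.06 ± 0.08 (adjusted p = 0.7008). Of all 14, 11 differed downward and 3 upward there, with a median log2 difference of -0.083 beside -0.008 over all genes. The part of p53 in the fall of Cdkn1a was not tested. Ndrg1, whose product SGK1 phosphorylates, fell by 0.41 ± 0.08 off drug against on drug (adjusted p = 0.00129).

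Immediate-early genes, which handling, stretch and growth factors can all induce, also differed in the off-drug libraries. Of 22 immediate-early genes, 12 fell off drug against control and 0 rose by edgeR (3 at an unadjusted p below 0.05, 1 by DESeq2 and 1 by limma-voom), and 12 fell off drug against on drug. In the latter 1 rose (Klf6, by 0.26, adjusted p = 0.01679), a call lost without on-drug replicate 2 or off-drug replicate 4. Egr1 was at 115, 114, 119 and 90.5 CPM in controls, 62.2, 75.5, 98.4 and 46.4 CPM on drug, and 16.2, 16.2, 19.8 and 13.8 CPM off drug. Fos was at 194, 272, 446.5 and 298 CPM in controls, 114, 196.5, 287 and 98.8 CPM on drug, and 35.7, 33.8, 53.8 and 31.8 CPM off drug. For both genes the off-drug mice were far below all others. Dusp1, Zfp36 and Cdkn1a, which growth factors and stress also induce, were lowest in the same 4 mice, and the part of this response in their falls was not tested.

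Clock genes differed strongly too, and hormone level and several of the 9 genes follow the time of day. Of 18 clock genes, 9 rose and 3 fell on drug and 10 rose and 5 fell off drug, both against controls. From on drug to off drug 8 rose and 5 fell. Over all genes tested 7.07%, 12% and 12.4% passed in either direction in these 3 comparisons. The 3 falls on drug were 1 without on-drug replicate 4, and the 9 rises were 5 when only those 2 groups were fitted. Arntl, the activator at the centre of the clock, was at 19.1, 13.9, 14.9 and 20.8 CPM in controls, 9.63, 13.1, 9.12 and 5.20 CPM on drug, and 1.02, 1.42, 1.11 and 0.791 CPM off drug. Dbp, a clock output, was at 31.6, 49.8, 52.0 and 53.8 CPM in controls, 70.0, 92.8, 118 and 153 CPM on drug, and 194, 161, 196 and 203 CPM off drug. The 3 groups did not overlap for either gene. Dbp rose on drug over controls by 1.21 (adjusted p = 0.01994), a call lost without control replicate 2 (0.05006), control replicate 3 (0.05407) or on-drug replicate 3 (0.06484). Per1, which is both a clock gene and a direct receptor target, passed in no comparison, with log2 differences of 0.34, 0.18 and -0.17. The part of the clock in the differences of Fkbp5, Klf9, Zbtb16, Nr3c1 and Nr3c2 was not tested, and with no hour of collection in the labels a difference in hour between groups cannot be told apart from the treatment.

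Cell-type markers were summed in each library to show what the tissue held. For the counts of markers that fell, 6.92% of all genes tested fell off drug against on drug and 5.77% off drug against control. For those that rose, 4.13% of all genes rose on drug against control and 6.27% off drug against control. Endothelial markers summed to 692.6 to 786 CPM in controls, 869.6 to 1004 CPM on drug and 626 to 814 CPM off drug, and 4 of 7 fell off drug against on drug. Macrophage markers summed to 392.3 to 484 CPM, 443 to 491 CPM and 352 to 386 CPM in the same order of groups, and 5 of 7 fell off drug against on drug. Fibroblast markers summed to 3649 to 4145 CPM, 4480.0 to 4922 CPM and 3515 to 3910.0 CPM, and 4 of 7 fell. White fat markers summed to 191 to 575 CPM, 279 to 552.5 CPM and 90.5 to 446 CPM. Red cell markers, mostly haemoglobin genes, summed to 4924 to 20560.0 CPM, 3877 to 6000.0 CPM and 2038 to 4801 CPM, and all 6 fell off drug against control. Nerve and Schwann cell markers summed to 60.1 to 67.0 CPM in controls, 77.8 to 84.1 CPM on drug and 78.8 to 87.4 CPM off drug. In this sum the controls lay below both other groups. Of 5 tested nerve markers, however, only Uchl1 differed upward from controls, and it passed in both comparisons. The other 4 differed downward from controls both on drug and off drug. Mast cell markers (9.002 to 14.6 CPM in controls, 16.6 to 27.7 CPM on drug, 7.24 to 19.4 CPM off drug) and skeletal muscle markers (4.78 to 6.54, 7.39 to 9.75 and 6.59 to 18.2 CPM) summed higher in every on-drug library than in any control. All 5 mast cell markers differed upward on drug against control. Of 8 tested skeletal muscle markers, 4 differed upward and 4 downward there, and 2 passed, both higher. No marker of these lists was at 0 in a whole group. The part of these cells in the differences of the 9 genes was not tested.

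By the correlation of log2 CPM over the 12 libraries, among 11887 genes ranked, the genes most like Fkbp5 included Shroom4 (r = 0.904), Baiap2 (0.903), Cd34 (0.902) and Klrg2 (0.899). These 4 were also lower off drug than on drug, with log2 differences from -0.43 to -0.83. Those most like Tsc22d3 were Ccdc163 (0.846), Gucd1 (0.84), Fra10ac1 (0.83), Gstm5 (0.825) and Efhc2 (0.821), none of which passed in any comparison. The ranking chose these genes for their pattern, so the correlations and their differences are a description.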

How the data were processed

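RNA sequencing libraries of 12 aortas were analysed. The authors deposited 1 table of read counts per library, and per the file headers the counter was featureCounts 1.4.6-p3, the annotation was release M13 of GENCODE for mouse and the index came from STAR 2.5.3a. GRCm38 is the build in the submitters' processing notes. Reads over several genes or places were counted for each and strand was ignored, per the file headers. The exons of the 9 genes overlapped no other annotated gene. The deposited series table of log2 values held the same counts after size scaling and gave the gene symbols.

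Tests used edgeR 4.0.16 under R 4.3.3: filterByExpr (minimum count 10, minimum total 15), TMM scaling and 1 robust quasi-likelihood fit of 3 groups to all 12 libraries, with 3 two-sided contrasts. Benjamini-Hochberg adjustment ran over the 24660 tested genes, and the threshold for a call was 0.05. CPM is the count per 1000000 of TMM-scaled library size. The 20 other settings were other scalings and filters, DESeq2 1.42.0, limma-voom (limma 3.58.1) with quality weights, the 2 compared groups alone, the replicate number as a block and each library left out. The steps were tested on simulated data. The 9 genes and all lists were chosen with earlier results of these data known. Named list genes were up to 3 per list, direction and comparison by smallest adjusted p, further limited, after the values were seen, to those called in every setting, plus 10 fixed genes. Tgm2, Cd163, Dnaja1, Ereg, Mdm2 and Ccng1 fall outside this rule and were named after their values were seen. Usp2, Klf6 and the on-drug fall of Cebpb are also named, although these calls were lost in some settings. Values of a few genes are not reported here, although counts over lists include them. The p-values set each group difference against the spread between samples within groups. That spread is 1 estimate per gene pooled over the 3 groups, although several of the 9 genes differed in spread between groups.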

Additional observations from a re-analysis of the deposited data

Results flagged for a closer look

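In 57 groups of 4 libraries (19 genes in 3 groups), 4 had a library whose gap to its nearest neighbour exceeded Dixon's critical value for 4 samples, where chance gives about 1 in 20. On-drug replicate 1 was that library in 3 of them. It held 141.5 CPM of Zbtb16 against 84.3 to 92.1 CPM in the other on-drug mice, 411.4 CPM of Errfi1 against 123.8 to 135.8 CPM, and 24.48 CPM of Nr3c2 against 16.1 to 17.0 CPM. The remaining one was Hsd11b2 in off-drug replicate 1, at 0.49 CPM against 0.276 to 0.307 CPM.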

How the results depend on the processing

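Of the 9 genes, the number called on drug against control was 1, and 0 to 1 with single libraries left out. Off drug against control it was 2, 4 in DESeq2, and 2 to 4 with single libraries left out. Off drug against on drug it was 6, and 4 to 6. Over all genes the calls on drug against control numbered 1743, against 2812 in DESeq2, 1147 with the 2 groups alone and 803 (without on-drug replicate 3) to 2290 with single libraries left out. Off drug against control they numbered 2967 (1989 to 3553), and off drug against on drug 3047 (2254 to 3252). Scaling by library size alone moved the share of calls that were higher from 58.4% to 72.8% on drug against control and from 52.1% to 68.9% off drug against control. Same-numbered samples of different groups did not deviate together (r between -0.08 and 0.067 over 12 pairs, beside -0.106 to 0.113 over 36 other pairs). These correlations cannot tell whether same-numbered mice shared a cage or a batch, which the labels do not give. With the replicate number as a block, 1, 2 and 4 of the 9 genes were called in the 3 comparisons, and 1558, 2791 and 3047 genes in all. The block lost Fkbp5 (adjusted p = 0.06339) and Zbtb16 (adjusted p = 0.1005) off drug against on drug.

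Signs turned only for differences that did not pass. With single libraries left out, Tsc22d3 on drug against control ran from -0.377 to 0.017 (0.006 without on-drug replicate 2), Zbtb16 from -0.072 to 0.212, and Dusp1 from -0.158 to 0.012 (0.005 without on-drug replicate 4). Off drug against control, Tsc22d3 ran from -0.149 to 0.001 and Hsd11b2 from -0.066 to 0.317 (-0.06 without control replicate 1), and Klf9 was 0.035 with library size alone. Off drug against on drug, Tsc22d3 ran from -0.1 to 0.294 (-0.09 without on-drug replicate 2, -0.001 without off-drug replicate 1 or 2), Sgk1 from -0.155 to 0.043, and Hsp90aa1 from -0.016 to 0.119 (-0.014 without off-drug replicate 2, and -0.004 in limma-voom). The cause was not tested. Counts were low for Hsd11b2, with 11 to 44 per library; the effect of depth was not tested.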

Other observations

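Inflammatory genes that the hormone is known to repress moved in both directions off drug. Of 16 tested, 6 fell and 2 rose against controls, and the lower count was 3 without control replicate 3 or off-drug replicate 3. The 2 rises were 1 without control replicate 2 or 4 or off-drug replicate 1, 3 or 4. Over all genes tested 5.77% fell and 6.27% rose in this comparison. The chemokine gene Ccl7 was at 1.68, 6.83, 4.84 and 6.38 CPM in controls, 2.00, 2.86, 3.11 and 2.64 CPM on drug, and 0.508, 1.07, 0.384 and 0.648 CPM off drug. It fell by 2.90 ± 0.43 on the log2 scale against controls (adjusted p = 0.00135), and Ccl2 fell with it, by 2.79 ± 0.60 (adjusted p = 0.01431). Ptgs2, the inducible cyclooxygenase, went the other way, at 21.3, 19.9, 19.5 and 16.9 CPM in controls and 28.6, 36.5, 40.9 and 48.7 CPM off drug, and rose by 1.00 ± 0.21 (adjusted p = 0.01113). Vcam1, an adhesion molecule for leukocytes, rose by 0.36 ± 0.06 off drug against on drug (adjusted p = 0.0005593), while Icam1, another adhesion molecule, fell by 0.41 ± 0.09 (adjusted p = 0.003811). On drug against control 0 of the 16 passed by edgeR, with 5 lower at an unadjusted p below 0.05, 0 by DESeq2 and 1 by limma-voom. Over all genes tested 7.07% passed on drug against control.

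Coactivators and corepressors of nuclear receptors were examined too. Of 13 tested, 0 passed on drug against control by edgeR, with 2 higher at an unadjusted p below 0.05 and 0 by DESeq2 or limma-voom, and their log2 differences lay between -0.04 and 0.23. The share of all genes tested that passed there was 7.07%.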
